A study of Sus scrofa with 23 samples.

Results

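NANOG, OTX2, SPIC, GSC and MYC are 5 genes for transcription factors of pluripotent cells, taken by symbol from a table of 8603 genes in 23 libraries of porcine oocytes and pre-implantation embryos. They were picked with their levels in these libraries already known, so the levels are a description and carry no test. IV-D oocytes had matured in vivo and came from Duroc sows in estrus. IV-D embryos came from Duroc sows after artificial insemination, and were collected at each cleavage stage from 1 to 8 cells, as morulae and as blastocysts. NT-D and NT-LW embryos were made by somatic cell nuclear transfer, in which the nucleus of an egg is replaced by that of a body cell, from ear fibroblasts of 1 Duroc boar and 1 Laiwu boar, and were cultured in PZM3 medium. The NT-D oocyte library held in vitro matured recipient oocytes, which the label calls Duroc and the methods call hybrid, and it stood for the egg of the NT-D and the NT-LW series alike. The Duroc boar that gave the NT-D cells also fathered the IV-D embryos. All clones were therefore male, whereas IV-D pools mixed the sexes. Donor, recipient egg, culture and sex differ together between clones and IV-D embryos, and their parts cannot be told apart.

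A blastocyst is a ball with a small inner cell mass, from which the embryo proper arises, inside a shell of trophectoderm, which contributes to the placenta. Blastocysts were cut with a microsurgical knife into TE, trophectoderm alone, and IT, the piece with the inner cell mass and some trophectoderm. Each library was 1 pool of 1 condition, and no condition had a second library in the table. A difference is therefore between 2 libraries, with no measure of the spread between pools.

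In mammals the egg runs the first divisions on stored RNA, and the embryo's own genes are switched on during the cleavage stages. NANOG is a homeodomain protein of the core network that keeps the inner cell mass and epiblast pluripotent. OTX2 is a homeodomain protein that steers naive cells toward a later epiblast state and is also needed for the head. GSC, or goosecoid, is a homeodomain repressor and a classical target of Nodal signalling in the gastrula organizer. MYC pairs with MAX on E-box DNA and drives growth and ribosome genes. SPIC belongs to the ETS family, is related to PU.1, and is best known from splenic macrophages that recycle iron.

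The levels of NANOG rest on a sequence that occurs at 2 places in the pig genome. In RefSeq on Sscrofa11.1, the build of the deposited data, one NANOG gene lies on chromosome 5 from 62931642 to 62939086 on the plus strand with 4 coding exons. Another gene of that name, with a single exon, lies on chromosome 1 from 169064134 to 169065292, also on the plus strand. Both coding sequences are 915 bases long with no internal stop codon. They differ at 2 bases, at coding positions 124 and 258, and are identical over 99.78% of their length. The stretch around position 258 is printed from each locus because, within the coding sequence, only such bases tell the copies apart. Sequence outside the coding sequence was not compared, and the differing base is in capitals:
chromosome 5, chr5:62935946-62936006, plus strand: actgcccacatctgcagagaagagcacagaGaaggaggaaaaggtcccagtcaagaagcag
chromosome 1, chr1:169064554-169064614, plus strand: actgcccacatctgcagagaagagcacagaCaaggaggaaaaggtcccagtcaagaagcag

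A window of 150 bases, the read length, covers neither difference at 66.3% of its positions along the coding sequence. Reads came in pairs, so a fragment has a window at each end and can cover a difference with either. The share of fragments that cover neither was not computed. How reads that map to both loci were counted is not given in the sources used here, so the NANOG row (ENSSSCG00000040403) could hold reads of either copy. The gene length behind its FPKM was also 915 bases, which is the length of both coding sequences. FPKM is the number of sequenced fragments scaled by the length of the gene and by the size of the library, so it is a share of each library.

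The other members each have 1 locus in RefSeq, all on the minus strand. OTX2 (ENSSSCG00000005063) lies on chromosome 1 from 186028575 to 186039026, MYC (ENSSSCG00000005965) on chromosome 4 from 12455141 to 12460360, SPIC (ENSSSCG00000000867) on chromosome 5 from 82724322 to 82793527 and GSC (ENSSSCG00000002490) on chromosome 7 from 116099053 to 116101153. NANOG, GSC and MYC came up at the same stage in all 3 groups, so the 250 bases before the start of the 6 loci were searched on both strands for 7 motifs. The bicoid-type site that OTX2 and GSC bind was searched as TAATCC. The site of FOXH1, the DNA-binding partner of Nodal signals, was searched as AATCCACA, and its first letters overlap those of the bicoid site. The GSC promoter held the FOXH1 letters from 149 to 142 bases before the start. The NANOG promoter on chromosome 5 held the bicoid letters from 76 to 71 bases before the start and TATA box letters on both strands, overlapping each other, from 30 to 23 bases before it. These 2 promoters are printed along the gene because they hold such matches, which are in capitals:
GSC promoter, chr7:116101154-116101403, minus strand: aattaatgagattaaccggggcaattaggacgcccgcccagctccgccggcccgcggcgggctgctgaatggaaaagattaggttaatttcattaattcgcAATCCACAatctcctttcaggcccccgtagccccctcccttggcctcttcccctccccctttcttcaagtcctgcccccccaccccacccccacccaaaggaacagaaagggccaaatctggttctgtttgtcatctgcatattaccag
NANOG promoter on chromosome 5, chr5:62931392-62931641, plus strand: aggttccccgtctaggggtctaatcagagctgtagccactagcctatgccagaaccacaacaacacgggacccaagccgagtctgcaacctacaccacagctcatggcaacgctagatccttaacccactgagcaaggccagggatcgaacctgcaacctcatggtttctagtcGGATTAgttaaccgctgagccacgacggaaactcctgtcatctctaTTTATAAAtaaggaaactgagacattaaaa

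Of 19559 promoters of protein-coding genes, 0.624% held the FOXH1 letters, 5.40% the bicoid letters and 9.77% the TATA box letters, which are TATAAA. The CCAAT box, in 31.9% of promoters, stood in those of SPIC and of NANOG on chromosome 1. Whether the windows of the 6 loci hold repeated sequence was not examined, so a match may belong to a repeat. The E-box of MYC and MAX (CACGTG) was in 6.39% of promoters and in none of the 6. The octamer of POU factors (ATGCAAAT) was in 1.24% and the PU-box type of ETS core (GAGGAA) in 22.0%, and again in none of the 6. The OTX2 and MYC promoters held none of the 7 motifs, which says only that these letters are not in these windows.

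The values in the table were whole multiples of what 1 fragment is worth, so the fragments behind each value could be recovered for all 8603 genes. Library depths were 14952784 to 22991067 fragments. The 95% intervals in parentheses after a fold are exact intervals from these fragments and cover counting error only. A gene with no fragment could still have been present, and its limit was set at 3 fragments. For NANOG that was 0.154 to 0.219 FPKM in the libraries without a fragment. The 95% intervals there reached slightly higher, to 0.189 to 0.270 FPKM. The 7 of 8 oocyte markers in the table summed to 1907 to 4169 FPKM in oocytes, 1-cell and 2-cell embryos and to 1.04 to 4.94 in the blastocyst parts. They were also at 213 FPKM in NT-D morulae, against 6.53 in IV-D and 28.1 in NT-LW. The 8 of 11 trophectoderm markers summed to 1265 to 2925 FPKM in the blastocyst parts and to at most 668 elsewhere. The 5 of 13 donor fibroblast markers summed to 22.4 to 139.7 FPKM in clones of 1 to 8 cells and to 1.04 to 6.11 in IV-D embryos of 2 to 8 cells. In the IV-D 1-cell library, which held no donor cell, they summed to 60.1 FPKM, with S100A4 at 39.9. The 3 of 10 cumulus cell markers summed to 9.83 to 172 FPKM. The part of these markers in the results that follow was not tested.

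**Figure D1:**
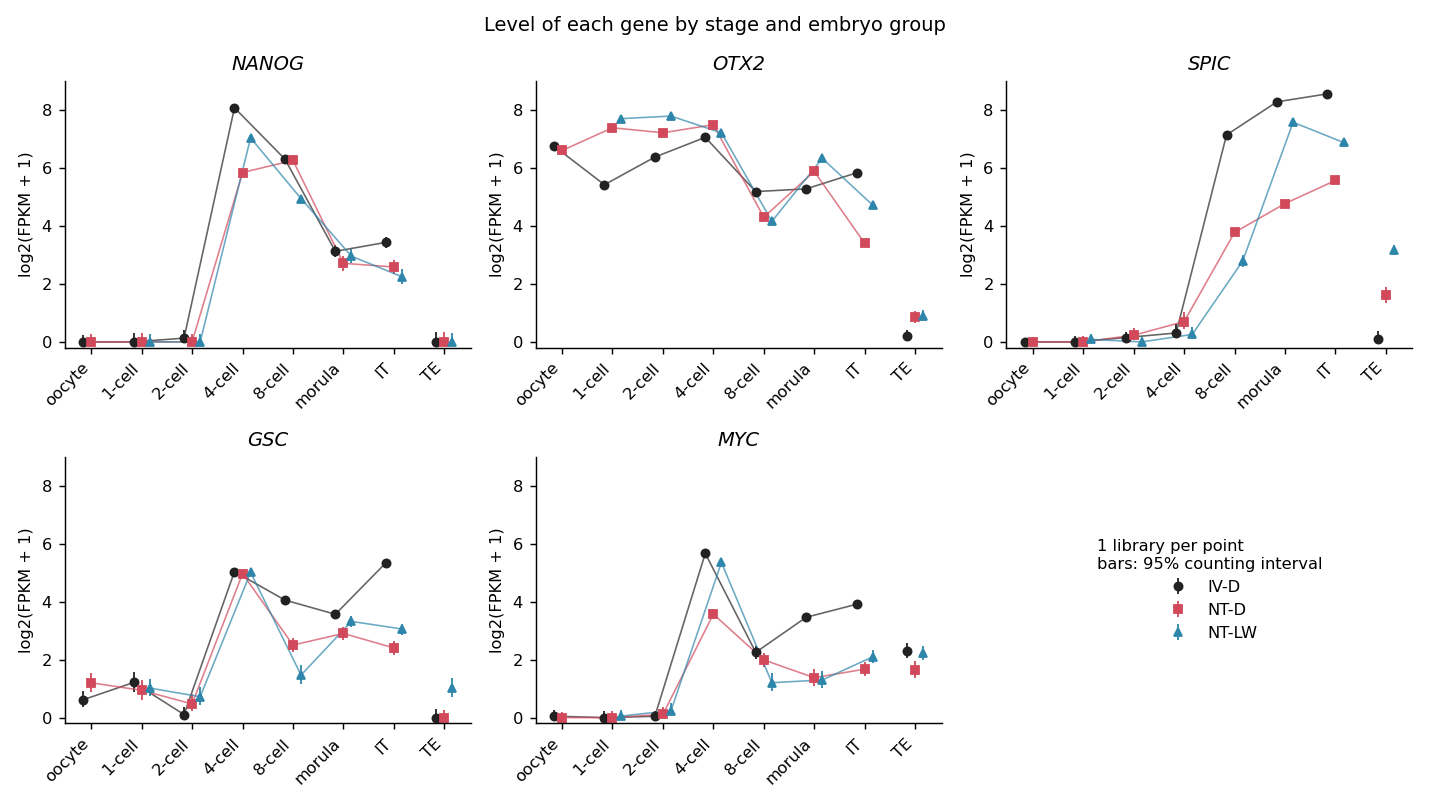
Level of each gene as log2(FPKM + 1) in the 23 libraries, by stage and group, with 1 point per library and bars for the 95% counting interval. NANOG, GSC and MYC leave their low early level at the 4-cell stage in all 3 groups, SPIC does so at the 8-cell stage, and OTX2 is high from the oocyte on.

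NANOG was not detected in eggs, appeared at the 4-cell stage and was not detected in trophectoderm. In IV-D it was at 0 FPKM in oocytes and 1-cell embryos, 0.0951 (2 fragments) in 2-cell, 269 in 4-cell, 78.1 in 8-cell, 7.73 in morulae, 9.80 in IT and 0 in TE. In NT-D the level was 0 through the 2-cell stage, 56.4 in 4-cell, 75.7 in 8-cell, 5.55 in morulae, 5.003 in IT and 0 in TE. In NT-LW it was 0 in 1-cell and 2-cell embryos, 130.4 in 4-cell, 29.8 in 8-cell, 6.75 in morulae, 3.76 in IT and 0 in TE.

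NANOG was highest at the 4-cell stage in IV-D and NT-LW, while in NT-D the 4-cell and 8-cell levels were within the fold rule of each other. From 2-cell to 4-cell embryos, NANOG was higher by 2829-fold (783 to 23366) in IV-D, a ratio to 2 fragments, and at least 312-fold in NT-D and at least 806-fold in NT-LW, where no fragment was found at the 2-cell stage and the bounds are set against 3 fragments. The IV-D ratio and the bounds are therefore not on the same footing. From 4-cell to 8-cell embryos it was lower by 3.44-fold (3.24 to 3.66) in IV-D and 4.38-fold (3.95 to 4.85) in NT-LW and higher by 1.34-fold (1.23 to 1.47) in NT-D, the last short of the fold rule given below and at 0.11 on the log2 scale with median-ratio scaling against 0.42 without. Ordered by level, IV-D 4-cell stood first, then NT-LW 4-cell, IV-D 8-cell, NT-D 8-cell, NT-D 4-cell and NT-LW 8-cell. Of these 6, only IV-D and NT-D 8-cell embryos had overlapping intervals as neighbours. The next 6 were the morulae and IT, and each overlapped its neighbour.

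The other factors of its network were followed in a list of pluripotency factors, with 14 of 28 in the table. By the fold rule a gene was called when its log2(FPKM + 1) values were more than 1 apart and the higher library had at least 1 FPKM, and it was tested when it had that level. A share of all genes is a share of the genes of the table tested in that comparison. From IV-D 2-cell to 4-cell embryos, 6 of 12 pluripotency factors were higher and 1 lower, where 34.4% and 12.3% of all genes were. Their median difference was 1.20 on the log2 scale against 0.46 over all genes. The median became 0.41 with median-ratio scaling of the libraries. KLF17, a Krüppel-like factor, went from 0 to 96.2 FPKM, DPPA2 from 1.44 to 85.9 and KLF4, one of the reprogramming factors, from 2.16 to 34.6.

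Set against IV-D 4-cell embryos, 4 of 14 pluripotency factors were lower in NT-D and 2 higher, and 3 of 12 were lower in NT-LW and 2 higher. Of all genes 13.2% were lower and 9.74% higher in NT-D and 9.43% and 10.8% in NT-LW. KLF17 was at 0 FPKM in NT-D and 10.7 in NT-LW, and KLF4 at 2.27 and 17.7. DPPA5, an RNA-binding protein already high in eggs, went the other way, with 1661 FPKM in NT-D and 2241 in NT-LW against 355 in IV-D. Oocyte markers were higher in clones at this stage too, 5 of 7 in NT-D with 1 lower and 5 of 7 in NT-LW. Donor fibroblast markers were higher as well, 3 of 5 in each clone group, and the part of either in the lower NANOG was not tested. In IT, 5 of 13 pluripotency factors were lower in NT-D and 2 higher, and 4 of 13 were lower in NT-LW and 2 higher. Of all genes 15.4% were lower in NT-D IT and 13.7% in NT-LW IT.

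MYC was highest in the 4-cell embryos of each group, at a lower level in NT-D than in the others. In IV-D it was at 0.0345 FPKM in oocytes, 0 in 1-cell, 0.0320 in 2-cell, 49.8 in 4-cell, 3.76 in 8-cell, 10.02 in morulae, 14.03 in IT and 3.94 in TE. In NT-D it was at 0 in oocytes and 1-cell embryos, 0.0813 in 2-cell, 10.9 in 4-cell, 2.98 in 8-cell, 1.60 in morulae, 2.19 in IT and 2.12 in TE. In NT-LW the values were 0.0360 in 1-cell, 0.182 in 2-cell, 39.9 in 4-cell, 1.30 in 8-cell, 1.46 in morulae, 3.29 in IT and 3.67 in TE.

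A second rise past the fold rule was seen in IV-D. Between 8-cell embryos and morulae MYC was higher by 2.66-fold (2.12 to 3.36) in IV-D. The same step was 1.12-fold (0.665 to 1.90) higher in NT-LW and 1.86-fold (1.26 to 2.79) lower in NT-D, neither past the rule. From morulae to IT, MYC in NT-LW was higher by 2.25-fold (1.51 to 3.41), which passed the rule with median-ratio scaling or a pseudocount of 0.1 and not otherwise. The highest levels were in IV-D and NT-LW 4-cell embryos, whose intervals were apart, followed by IV-D IT and then by NT-D 4-cell embryos and IV-D morulae, which overlapped. The 10 libraries from 3.94 down to 1.30 FPKM each overlapped their neighbour.

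The proteins that share MAX with MYC were followed as the MAX network, with 8 of 12 in the table. From IV-D 2-cell to 4-cell embryos 2 of 6 of the MAX network were higher and 0 lower, and from 4-cell to 8-cell embryos 4 of 8 were higher and 2 lower (3 and 3 with median-ratio scaling). Of all genes 34.4% were higher and 12.3% lower at the former step, and 35.0% and 28.1% at the latter. MXD1, a repressor that competes with MYC for MAX, went from 52.5 FPKM in IV-D 4-cell embryos to 0.986 in 8-cell embryos. At the 4-cell stage 2 of 7 of the MAX network were higher in each clone group than in IV-D and 0 lower. The shares of all genes at that stage stand with the pluripotency factors above. MYCN, the close relative of MYC, was at 0.553 FPKM in IV-D, 3.79 in NT-D and 8.84 in NT-LW, and MAX itself at 5.999, 20.9 and 16.7.

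Of a list of MYC target genes, 33 of 40 were in the table. From IV-D 2-cell to 4-cell embryos 9 of 27 MYC target genes were higher and 3 lower, with a median of 0.81 against 0.46 over all genes, of which 34.4% were higher. From 4-cell to 8-cell embryos 22 of 32 were higher and 1 lower (18 and 2 with median-ratio scaling), with a median of 1.51 against 0.25 over all genes, of which 35.03% were higher. ODC1, the rate-limiting enzyme of polyamine synthesis, went from 5.88 to 479 FPKM, and WDR43, a ribosome assembly factor, from 78.3 to 0.0624.

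In 8-cell embryos 14 of 31 MYC target genes were lower in NT-D than in IV-D and 2 higher, and 14 of 32 were lower in NT-LW and 4 higher, where 17.4% and 17.3% of all genes were lower and, with each library set to the same sum, 24.6% and 24.2%. ODC1 stood there at 88.5 FPKM in NT-D and 58.4 in NT-LW. In IT, 11 of 30 were lower in NT-D and 9 of 30 in NT-LW, and 0 were higher in either. Of all genes 15.4% were lower in NT-D IT and 13.7% in NT-LW IT. NCL, the nucleolar protein nucleolin, was at 206 FPKM in IV-D IT, 80.1 in NT-D and 52.6 in NT-LW. Between IT and TE of IV-D, 14 of 30 were higher in IT and 3 lower, against 0 of 28 higher in NT-D and 1 of 30 in NT-LW. The share of all genes higher in IT was also smaller in the clones, at 18.02% in IV-D, 4.32% in NT-D and 5.07% in NT-LW.

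**Figure D2:**
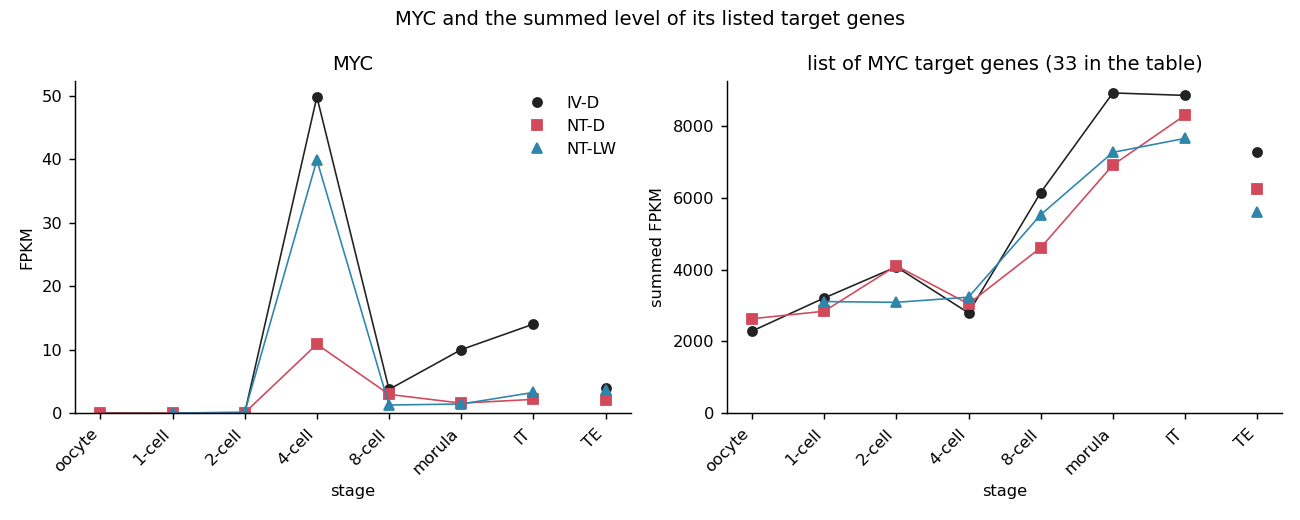
FPKM of MYC and summed FPKM of the 33 listed MYC target genes in the table, by stage and group, 1 point per library. MYC peaks at the 4-cell stage, at 49.8 in IV-D, 10.9 in NT-D and 39.9 in NT-LW, while the summed MYC target genes are highest in IV-D morulae (8919), NT-D IT (8299.9) and NT-LW IT (7653).

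GSC reached the same level in the 4-cell embryos of all 3 groups within counting error, and was lower in clones than in IV-D in 8-cell embryos and IT. In IV-D it was at 0.533 FPKM in oocytes, 1.32 in 1-cell, 0.0761 in 2-cell, 31.8 in 4-cell, 15.6 in 8-cell, 10.8 in morulae, 39.4 in IT and 0 in TE. In NT-D the values were 1.30 in oocytes, 0.921 in 1-cell, 0.387 in 2-cell, 30.3 in 4-cell, 4.67 in 8-cell, 6.48 in morulae, 4.29 in IT and 0 in TE. In NT-LW they were 1.03 in 1-cell, 0.648 in 2-cell, 31.2 in 4-cell, 1.76 in 8-cell, 8.98 in morulae, 7.32 in IT and 1.04 in TE.

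At the 4-cell stage NT-D was lower than IV-D by 1.05-fold (0.933 to 1.19) and NT-LW by 1.02-fold (0.912 to 1.14). From IV-D morulae to IT, GSC was higher by 3.64-fold (3.16 to 4.19), 1 of 5 members called, where 7.7% (11.3% with median-ratio scaling) of all genes were higher. In the clones GSC did not pass the rule at that step, with 1.51-fold (1.16 to 1.96) in NT-D and 1.23-fold (0.992 to 1.52) in NT-LW, both toward a lower level in IT. IV-D IT stood first among the 23 libraries, apart from the 3 libraries of 4-cell embryos that followed.

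Of the Nodal pathway and its targets, 14 of 33 were in the table. From 2-cell to 4-cell embryos 4 of 9 of the Nodal pathway and its targets were higher and 1 lower in IV-D, 5 of 11 and 0 in NT-D, and 4 of 12 and 3 in NT-LW. Of all genes 34.4%, 17.3% and 16.5% were higher and 12.3%, 8.36% and 19.9% lower in these groups. GDF3, a ligand related to Nodal, went from 0.159 to 14.3 FPKM in IV-D, from 0.860 to 18.5 in NT-D and from 1.04 to 16.9 in NT-LW. ACVR1B, a type I receptor for Nodal and activin, went in IV-D from 2.69 to 0.403 FPKM. In IT against TE of IV-D, where 18.0% of all genes were higher, 4 of 11 were higher and 0 lower. Among them FST, which binds and blocks activin, was at 52.4 FPKM in IT and 7.16 in TE. In IT, 2 of 11 were lower in NT-D and 1 of 11 in NT-LW than in IV-D, where 15.4% and 13.7% of all genes were lower. The hypoblast, which borders the epiblast, has GATA factors and PDGFRA as markers, and 8 of 12 hypoblast markers were in the table. Of 4 hypoblast markers tested, 2 were higher in IV-D IT than in TE, with PDGFRA at 11.6 and 0.0614 FPKM, and PDGFRA was at 1.66 in NT-D IT and 2.22 in NT-LW IT. Against IV-D IT, 0 of 4 hypoblast markers were higher and 1 lower in NT-D, and 1 of 4 higher and 1 lower in NT-LW. The list summed to 55.2 FPKM in IV-D IT, 43.1 in NT-D and 51.6 in NT-LW.

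OTX2 was the only member stored at a high level in eggs. In IV-D it was at 107 FPKM in oocytes, 41.9 in 1-cell, 82.1 in 2-cell, 132 in 4-cell, 35.4 in 8-cell, 37.8 in morulae, 56.003 in IT and 0.162 in TE. In NT-D it was at 96.2 in oocytes, 167 in 1-cell, 148 in 2-cell, 179 in 4-cell, 18.7 in 8-cell, 58.02 in morulae, 9.56 in IT and 0.797 in TE. In NT-LW the values were 207 in 1-cell, 221 in 2-cell, 147 in 4-cell, 16.8 in 8-cell, 79.5 in morulae, 25.3 in IT and 0.876 in TE.

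OTX2 was lower in 8-cell than in 4-cell embryos of every group, by 3.73-fold (3.56 to 3.91) in IV-D, 9.56-fold (9.002 to 10.2) in NT-D and 8.75-fold (8.17 to 9.38) in NT-LW. The clones then had a higher level in morulae, by 3.10-fold (2.90 to 3.31) in NT-D and 4.72-fold (4.40 to 5.07) in NT-LW, while IV-D morulae were 1.07-fold (1.01 to 1.13) higher and short of the rule. The oocyte markers were at 198 and 213 FPKM in NT-D 8-cell embryos and morulae and at 248 and 28.1 in those of NT-LW. From morulae to IT, OTX2 was lower by 6.07-fold (5.59 to 6.60) in NT-D and 3.14-fold (2.98 to 3.32) in NT-LW and higher by 1.48-fold (1.41 to 1.56) in IV-D, the last short of the rule. The IV-D 1-cell value was the lowest of IV-D before the 8-cell stage and came from the library with donor fibroblast markers at 60.1 FPKM. In the order of levels, 16 of 22 neighbours were apart, led by NT-LW 2-cell and 1-cell embryos, and the NT-D 2-cell and NT-LW 4-cell levels overlapped.

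Among homeobox factors of the paired class, to which OTX2 and GSC belong, 6 of 36 others were in the table. From 4-cell to 8-cell embryos 6 of 6 homeobox factors of the paired class were lower in IV-D, 5 of 6 in NT-D and 5 of 6 in NT-LW, where 28.1%, 28.7% and 25.6% of all genes were lower. PAX6, known from eye and brain, went from 119 to 7.38 FPKM in IV-D. The oocyte markers were lower at that step as well, 7 of 7 in each group. In IV-D IT the homeobox factors of the paired class summed to 7.10 FPKM, where OTX2 alone was at 56.003.

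The genes of the formative and primed epiblast, the later state linked to OTX2, had 9 of 20 in the table. Of 4 genes of the formative and primed epiblast tested, 2 were higher in IV-D IT than in TE and 0 lower. Between these parts 18.0% of all genes were higher in IT. CDH2, or N-cadherin, was at 1.96 FPKM in IV-D IT and 0.0522 in TE. In IT 1 of 4 was lower in NT-D, and 2 of 5 were lower with 1 higher in NT-LW. Of all genes 15.4% were lower in NT-D IT and 13.7% in NT-LW IT. DNMT3A, a DNA methyltransferase of that list, was at 3.44 FPKM in IV-D IT, 2.56 in NT-D and 1.19 in NT-LW.

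SPIC came on latest and had the widest differences between clones and IV-D in 8-cell embryos and in NT-D morulae. In NT-LW the fold was wider for GSC and MYC in IT and for MYC and OTX2 in morulae. In NT-D IT the fold was wider for GSC, but its interval overlapped that of SPIC. On the log2(FPKM + 1) scale SPIC was the wider there. In IV-D, SPIC was at 0 FPKM in oocytes and 1-cell embryos, 0.109 in 2-cell, 0.238 in 4-cell, 140.2 in 8-cell, 310.5 in morulae, 376 in IT and 0.0841 in TE. In NT-D the values were 0 in oocytes and 1-cell embryos, 0.174 in 2-cell, 0.627 in 4-cell, 12.7 in 8-cell, 26.3 in morulae, 46.5 in IT and 2.06 in TE. In NT-LW they were 0.0615 in 1-cell, 0 in 2-cell, 0.197 in 4-cell, 5.92 in 8-cell, 190.1 in morulae, 117 in IT and 8.08 in TE.

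From 4-cell to 8-cell embryos SPIC was higher by 589-fold (271 to 1607) in IV-D, 20.3-fold (12.2 to 36.6) in NT-D and 30.04-fold (13.5 to 83.1) in NT-LW. NT-LW had a further step of 32.1-fold (27.4 to 37.96) from 8-cell embryos to morulae, against 2.21-fold (2.14 to 2.29) in IV-D and 2.07-fold (1.83 to 2.34) in NT-D. In 8-cell embryos NT-D was lower than IV-D by 11.003-fold (9.92 to 12.2) and NT-LW by 23.7-fold (20.2 to 28.004). In morulae NT-D was lower by 11.8-fold (10.96 to 12.7) and NT-LW by 1.63-fold (1.58 to 1.69), the last within the fold rule. The 11 libraries above 1 FPKM were each apart from their neighbour in the order of levels.

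The ETS family had 11 of 26 genes in the table beside SPIC. From IV-D 4-cell to 8-cell embryos 2 of 9 of the ETS family were higher and 4 lower (1 and 6 with median-ratio scaling). Of all genes 35.0% were higher and 28.1% lower (28.7% and 33.4% with median-ratio scaling). EHF, an epithelial ETS factor, went from 47.1 to 2.82 FPKM, while ELF2 went from 2.76 to 15.5. In 8-cell embryos, where SPIC was lower in both clone groups, the ETS family had 1 gene higher and 1 lower of 9 in NT-D and 2 higher and 1 lower of 9 in NT-LW. Of all genes 17.4% were lower in NT-D and 17.3% in NT-LW 8-cell embryos. In IT, where 15.4% of all genes were lower in NT-D and 13.7% in NT-LW, 2 of 7 and 2 of 8 were lower, EHF and ELF3 in both. ELF3 was at 11.07 FPKM in IV-D IT, 3.73 in NT-D and 2.97 in NT-LW.

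Because SPIC is known from macrophages, 10 macrophage markers were followed, of which AIF1 and FCER1G were in the table and the others were not analysed here. FCER1G was at 33.02 FPKM in IV-D IT and 601 in TE, and AIF1 at 2.26 and 81.2. In NT-D, FCER1G was at 1049 FPKM in IT and 879.5 in TE and AIF1 at 83.5 and 63.8. In NT-LW, FCER1G was at 417 and 420.4 and AIF1 at 52.1 and 33.7. Both macrophage markers were thus lower in IT than in TE in IV-D, not called between the parts in either clone group, and higher in each clone IT than in IV-D IT. Their part in the SPIC level was not tested.

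Counted over the 5 genes and 21 steps between successive stages, 50 of 83 tested pairs of gene and step were called, 20 higher and 30 lower. Of all genes 7.14% to 63.2% were called, depending on the step. Up to the 2-cell stage few members were called. OTX2 was lower from IV-D oocytes to 1-cell embryos, 1 of 2 members, where 7.64% (10.3% with median-ratio scaling) of genes were lower, and higher from oocytes to NT-LW 1-cell embryos, 1 of 2, where 7.29% (4.03% with median-ratio scaling) were higher. With median-ratio scaling the latter no longer passed the rule. GSC was lower from IV-D 1-cell to 2-cell embryos, 1 of 2, where 24.6% (12.6% with median-ratio scaling) of genes were lower.

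From 2-cell to 4-cell embryos the same 3 members, NANOG, GSC and MYC, were higher in every group. That was 3 of 4 tested in IV-D, where 34.4% (21.3% with median-ratio scaling) of genes were higher, 3 of 4 in NT-D, where 17.3% (13.5% with median-ratio scaling) were, and 3 of 4 in NT-LW, where 16.5% (17.3% with median-ratio scaling) were. The 4-cell to 8-cell step called 4 of 5 in IV-D, 4 of 5 in NT-D and 5 of 5 in NT-LW, but also 63.2%, 60.0% and 53.7% of all genes in either direction. SPIC was the only member among them that was higher. From 8-cell embryos to morulae 3 of 5, 2 of 5 and 4 of 5 were called, beside 25.9%, 43.6% and 34.9% of all genes, and NANOG was lower in each group.

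From morulae to IT, OTX2 alone was called in the clones, joined by SPIC in NT-D and MYC in NT-LW with median-ratio scaling. It was lower in NT-D, 1 of 5, where 35.1% (16.5% with median-ratio scaling) of genes were lower, and in NT-LW, 1 of 5, where 28.1% (11.9% with median-ratio scaling) were. From morulae to TE 5 of 5 were lower in IV-D, where 24.6% (15.1% with median-ratio scaling) of genes were, 4 of 5 in NT-D, where 38.5% (19.98% with median-ratio scaling) were, and 4 of 5 in NT-LW, where 40.3% (15.2% with median-ratio scaling) were. MYC in IV-D was lower by 2.55-fold (1.98 to 3.30) at that step and no longer passed the rule with median-ratio scaling.

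Between IT and TE, 13 of 15 pairs were called and all 13 were higher in IT. The 51 genes above 10 FPKM in IV-D IT and under 1 in IV-D TE served as a scale for this contrast. In IV-D 5 of 5 members were higher in IT, where 18.0% of genes were. NANOG was at least 44.7-fold and GSC at least 225-fold higher, both with 0 fragments in TE. OTX2 was higher by 345-fold (175 to 800.2), SPIC by 4469.8-fold (1237 to 36913) from 2 fragments in TE, and MYC by 3.56-fold (2.79 to 4.60).

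The clones kept this order for the same members except MYC. In NT-D 4 of 5 were higher in IT, where 4.32% of genes were, with NANOG at least 23.8-fold, GSC at least 25.5-fold, OTX2 11.99-fold (8.74 to 16.9) and SPIC 22.6-fold (17.1 to 30.5) higher. In NT-LW 4 of 5 were higher, where 5.07% (2.997% with median-ratio scaling) of genes were, with NANOG at least 20.3-fold, GSC 7.04-fold (4.47 to 11.6), OTX2 28.9-fold (21.9 to 38.96) and SPIC 14.5-fold (12.6 to 16.6) higher. MYC was higher in IT by 1.03-fold (0.692 to 1.55) in NT-D and lower by 1.12-fold (0.826 to 1.51) in NT-LW, and both intervals include no difference.

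TE held 0 fragments of NANOG in each group, but OTX2, SPIC and GSC were not equally low in all TE libraries. OTX2 had 8 fragments in IV-D TE, 41 in NT-D and 51 in NT-LW, and its TE level was 0.290%, 8.34% and 3.46% of that in IT. SPIC had 2 fragments in IV-D TE, 51 in NT-D and 227 in NT-LW. The SPIC level in TE was 0.0224% of that in IT in IV-D, 4.42% in NT-D and 6.92% in NT-LW. GSC had 21 fragments in NT-LW TE and 0 in the other groups. The median over the 51 genes was 17.8 FPKM in IT and 0.245 in TE of IV-D, 2.73 and 0.411 in NT-D and 3.77 and 1.04 in NT-LW. These genes were chosen on the IV-D values, which are therefore no finding. The choice also favours lower IT and higher TE values in the clones, so the clone medians and counts are a description only. OTX2, SPIC and GSC meet the same limits and are among the 51. Of the 51, 16 were at 1 FPKM or more in NT-D TE and 29 in NT-LW TE. Of 8 trophectoderm markers 1 was higher in IT and 1 lower in IV-D, and none was called in either clone group. They summed to 1435 FPKM in IT and 1350.2 in TE of IV-D, 1265 and 1979 in NT-D and 1739.6 and 2925 in NT-LW.

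**Figure D3:**
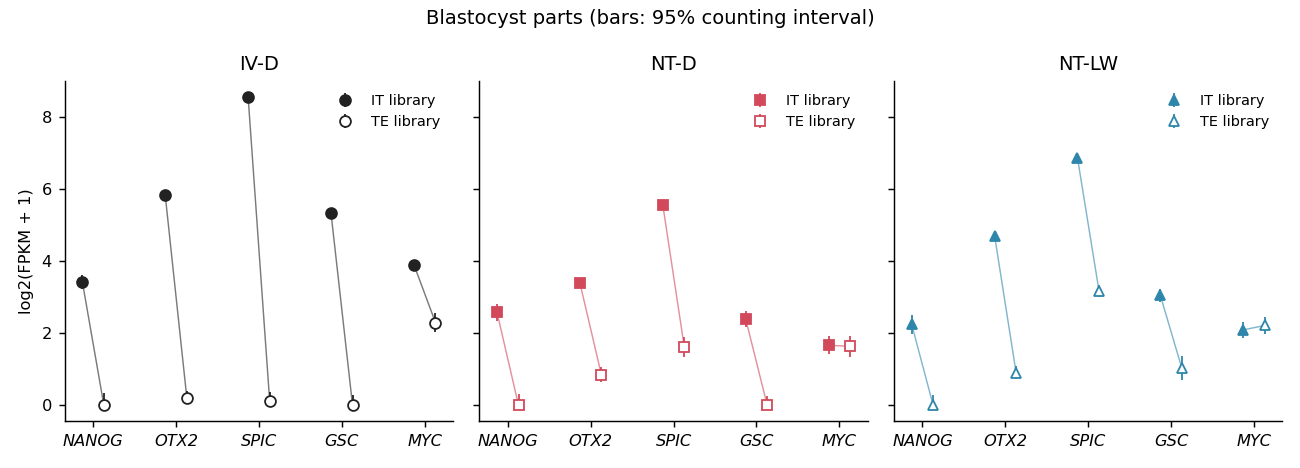
Level of each gene as log2(FPKM + 1) in IT (filled) and TE (open) of the 3 groups, 1 library per point, with bars for the 95% counting interval. NANOG, OTX2, SPIC and GSC are lower in TE than in IT in every group, and MYC is so in IV-D, at 14.03 in IT and 3.94 in TE.

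Set against IV-D at the same stage, 29 of 51 tested pairs were called in the clones, 7 higher and 22 lower. Of all genes 7.36% to 28.3% were called in NT-D, depending on the stage. In NT-LW 2-cell embryos the share higher was by itself 34.7%, above that range. The shares that go with each call follow. Both clone groups were compared with the same IV-D libraries, so their values stand side by side. In 1-cell embryos OTX2 was higher by 3.97-fold (3.80 to 4.16) in NT-D, 1 of 2 members, where 18.5% (7.13% with median-ratio scaling) of genes were higher. In NT-LW it was higher by 4.94-fold (4.73 to 5.17), 1 of 2, where 20.8% (10.1% with median-ratio scaling) were. The median over all genes was itself higher there, by 0.42 in NT-D and 0.35 in NT-LW on the log2 scale, and median-ratio scaling left OTX2 higher by 1.48 and 1.83. In NT-LW 2-cell embryos OTX2 was higher by 1.42, 1 of 1, where 34.7% (12.6% with median-ratio scaling) of genes were higher, and by 0.48 with median-ratio scaling, no longer past the rule.

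In 4-cell embryos NT-D was lower for NANOG by 4.77-fold (4.41 to 5.15) and for MYC by 4.58-fold (3.96 to 5.32), 2 of 4 tested, where 13.2% of genes were lower. NT-LW was lower for NANOG by 2.06-fold (1.96 to 2.17), 1 of 4, where 9.43% of genes were lower, and its MYC was 1.25-fold (1.15 to 1.36) lower, within the rule. OTX2 and GSC were within the rule in both.

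In 8-cell embryos 2 of 5 members were lower in NT-D, SPIC and GSC, and 5 of 5 in NT-LW. Of all genes 17.4% (13.001% with median-ratio scaling) were lower in NT-D and 17.3% (15.1% with median-ratio scaling) in NT-LW, and with each library set to the same sum 24.6% and 24.2%. With median-ratio scaling OTX2 and MYC no longer passed the rule in NT-LW, at -0.93 and -0.91 on the log2 scale. GSC was lower by 3.34-fold (2.68 to 4.20) in NT-D and 8.85-fold (6.19 to 13.1) in NT-LW, and NANOG by 1.03-fold (0.958 to 1.11) and 2.62-fold (2.36 to 2.92), the former within the rule. The oocyte markers summed to 198 FPKM in NT-D and 248 in NT-LW 8-cell embryos against 21.3 in IV-D. Of these markers 5 of 6 were called higher in each clone group. In NT-D 10.8% (13.95% with median-ratio scaling) of all genes were higher. The part of these markers in the lower members was not tested.

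In morulae 2 of 5 members were lower in NT-D, SPIC and MYC, where 3.88% (6.51% with median-ratio scaling) of genes were lower. In NT-LW 2 of 5 were called, MYC lower and OTX2 higher, where 15.7% of genes were called in either direction. MYC was lower by 6.28-fold (4.51 to 8.93) in NT-D and 6.86-fold (4.82 to 10.05) in NT-LW. OTX2 in NT-LW was higher by 1.05 on the log2 scale, and by 0.79 with median-ratio scaling, then within the rule.

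In IT 4 of 5 members were lower in NT-D and 5 of 5 in NT-LW, where 15.4% and 13.7% of genes were lower. Fewer inner cell mass cells in the piece and less RNA per cell cannot be told apart in these pools. In NT-D, GSC was lower by 9.18-fold (7.48 to 11.4), SPIC by 8.07-fold (7.66 to 8.52), MYC by 6.42-fold (4.90 to 8.52) and OTX2 by 5.86-fold (5.39 to 6.37), while NANOG was 1.96-fold (1.52 to 2.54) lower and within the rule. In NT-LW, GSC was lower by 5.38-fold (4.58 to 6.35), MYC by 4.27-fold (3.40 to 5.41), SPIC by 3.22-fold (3.10 to 3.34), NANOG by 2.61-fold (1.97 to 3.47) and OTX2 by 2.21-fold (2.09 to 2.34). Of all 8 trophectoderm markers tested, 1 was higher and 2 lower in each clone IT, where 9.47% of all genes were higher in NT-D. The markers summed to 1435 FPKM in IV-D IT, 1265 in NT-D IT and 1739.6 in NT-LW IT. The 1 that was higher was GATA3, at 5.42 FPKM in IV-D IT, 17.1 in NT-D IT and 14.4 in NT-LW IT. The part of the trophectoderm markers in the lower members was not tested.

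In TE the members called were higher in the clones. SPIC was higher in NT-D by 24.4-fold (6.43 to 207), 1 of 2, where 3.13% of genes were higher. In NT-LW SPIC was higher by 96.1-fold (26.3 to 799) and GSC by at least 5.93-fold, 2 of 3, where 6.26% (8.67% with median-ratio scaling) were. Both SPIC ratios rest on 2 fragments in IV-D TE.

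**Figure D4:**
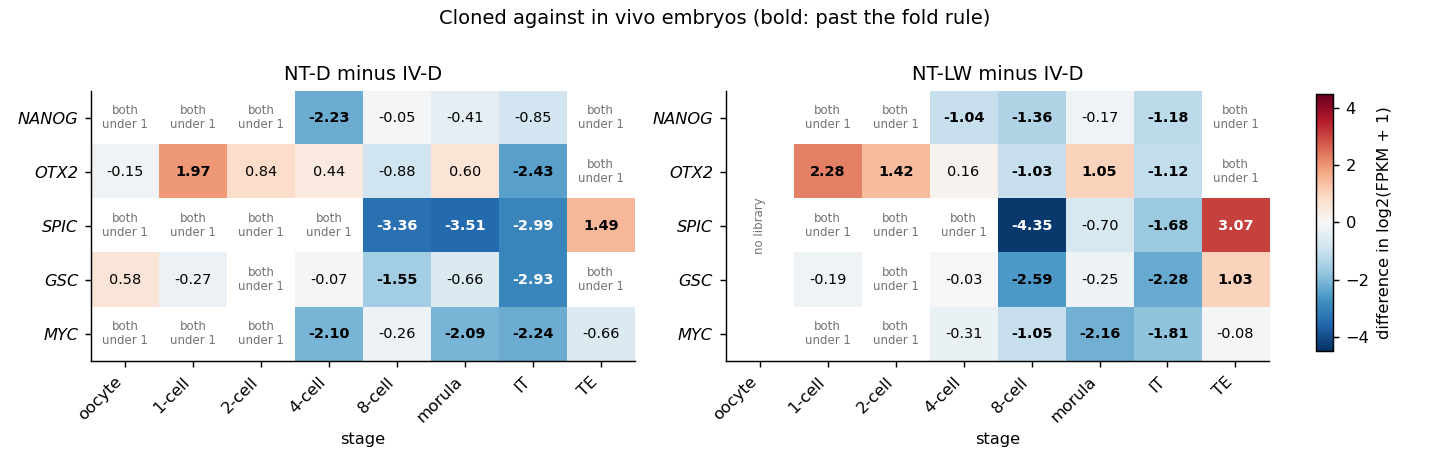
Difference in log2(FPKM + 1) of each gene between clones and IV-D embryos of the same stage, for NT-D and for NT-LW, blue for lower and red for higher in clones, with bold values past the fold rule. The IT columns are below 0 for all 5 genes in both clone groups, and the 8-cell column is past the rule throughout in NT-LW.

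Between the clone groups 9 of 25 tested pairs were called, 7 higher in NT-LW and 2 lower. In 4-cell embryos NANOG was higher in NT-LW by 2.31-fold (2.13 to 2.51) and MYC by 3.67-fold (3.17 to 4.26), 2 of 4 members, where 3.42% (2.46% with median-ratio scaling) of genes were higher. The order turned in 8-cell embryos, where NT-LW was lower for NANOG by 2.54-fold (2.28 to 2.83) and for GSC by 2.65-fold (1.77 to 4.05), 2 of 5, where 2.15% (2.61% with median-ratio scaling) were lower. In morulae SPIC was higher in NT-LW by 7.22-fold (6.70 to 7.79), 1 of 5, where 7.02% were higher. In IT, SPIC was higher by 2.51-fold (2.37 to 2.66) and OTX2 by 2.65-fold (2.42 to 2.90), 2 of 5, where 2.54% were. In TE, SPIC was higher by 3.93-fold (2.89 to 5.44) and GSC at least 6.18-fold, 2 of 3, where 4.6% (6.35% with median-ratio scaling) were. Each breed is 1 donor boar here, so breed and donor cannot be told apart.

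The genes whose pattern was most like each member's were taken by Pearson's r of log2(FPKM + 1) over the 23 libraries, among 5645 genes with a symbol and at least 10 FPKM in some library. Neighbouring stages are alike and the genes of a library share its depth, so r is a description. For NANOG they were TLR3 (r = 0.954), ATF1 (0.943), PRPF38A (0.937), BNIP2 (0.932) and ZNF473 (0.930). For MYC they were RSRP1 (0.919), RBM14 (0.891), ZNF473 (0.882), TDG (0.881) and NRF1 (0.880), so ZNF473, a zinc finger gene, stood near both. For GSC they were NXF1 (0.861), FAM111A (0.856), GTF2F1 (0.854), ZNF622 (0.849) and AKAP8 (0.847). TLR3, the receptor for double-stranded RNA, had its highest level of 83.6 FPKM in IV-D 8-cell embryos, and TDG, a DNA glycosylase, had 104 in NT-LW 4-cell embryos.

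For SPIC the most alike genes were CMKLR2 (0.960), SUOX (0.957), ETNPPL (0.948), CA2 (0.938) and SULT1E1 (0.926). CMKLR2 and SUOX, which encodes sulfite oxidase, also had their highest level in IV-D IT, at 36.3 and 23.8 FPKM, and SULT1E1, an estrogen sulfotransferase, in IV-D 8-cell embryos at 1473. For OTX2 they were RUNX1T1 (0.923), SLC39A10 (0.908), KPNA3 (0.908), POLD3 (0.908) and PPARG (0.904), each highest in a clone library. Among the members themselves r was 0.84 for NANOG and GSC, 0.81 for GSC and MYC and 0.77 for NANOG and MYC, while the pairs with OTX2 or SPIC ran from -0.20 to 0.51.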

How the data were processed

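SMART-Seq v4 libraries were sequenced as 150-base read pairs. Per the labels and the study's methods, the authors aligned reads with HISAT2 2.0.4 to Sscrofa11.1, counted them with HTSeq 0.9.1 and deposited FPKM values in a table named for differentially expressed genes, 8603 genes by 23 libraries, 1 per condition. These genes hold 82.8% to 97.2% of each library's fragments. By its name the table is a selection of changing genes, so shares of all genes may be larger than over the whole genome. The study's replicate libraries were not analysed here.

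The 5 members and the 13 gene lists were chosen with earlier results of these data known. Fragments per gene were recovered from the steps in the FPKM values, and the recovery was tested on simulated data. With 1 library per condition nothing measures the spread within a condition, so no p-value between conditions is given. A gene was tested with at least 1 FPKM in the higher library and called when log2(FPKM + 1), with a pseudocount of 1, differed by more than 1, in 46 comparisons. Such differences understate the change of low genes. Counting intervals are 95% exact intervals, and bounds against 0 use 3 fragments. From each list up to 6 genes were named by their largest difference in a comparison described, and S100A4 outside this rule, after its values were seen. The 5 genes most alike by Pearson's r were named for each member. Alternatives were a pseudocount of 0.1, a minimum of 5 FPKM or none, Spearman's rho, an exact binomial test on the fragments, scaling by median ratios, and rescaling of each library to a sum of 1000000. Python 3.11.15, numpy 2.4.6, pandas 2.3.3 and scipy 1.17.1 were used. Sequences and loci are from RefSeq on Sscrofa11.1.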

Additional observations from a re-analysis of the deposited data

How the results depend on the processing

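No paired analysis was possible because each condition has 1 library, and for the same reason no library could be left out of a group. Of the 50, 29, 13 and 9 calls between stages, between clones and IV-D, between IT and TE and between clone groups, a pseudocount of 0.1 gave 55, 30, 13 and 11, a minimum of 5 FPKM 49, 26, 11 and 7, no minimum 50, 29, 13 and 9, rescaling to a sum of 1000000 gave 52, 31, 13 and 10, median-ratio scaling 53, 25, 13 and 10, and the exact binomial test on fragments, which covers counting error between 2 libraries and no other spread, left the counts as they were. Median-ratio scaling removed OTX2 in NT-LW 2-cell, 8-cell embryos and morulae and MYC in NT-LW 8-cell embryos against IV-D. The minimum of 5 FPKM removed GSC in NT-D and NANOG in NT-LW between IT and TE. Rescaling left 3 of 5 members with the same highest library, OTX2 then being highest in NT-LW 1-cell and GSC in IV-D 4-cell embryos. Of the 25 genes named as most alike, 11 were kept with a pseudocount of 0.1 and 6 with Spearman's rho. With Spearman's rho none of the genes named for SPIC or OTX2 was kept. No called member changed direction. Depth limits low values, and ratios to 1 to 3 fragments have wide intervals.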
